A study of Gallus gallus with 12 samples.

Results

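CDH2, CLDN1, SNAI1, SNAI2, CTNND2 and ESRP2 are grouped here as genes linked to the change between epithelial and mesenchymal cells. CTNND2 stands among them as a binding partner of cadherins. They were taken by symbol, and each matched 1 of the 13106 gene rows of the count tables. The choice was made with earlier results of these data known, so their ranks and p-values below are not those of genes picked blind. RNA was sequenced from 6 chick (Gallus gallus) embryos, with a pair of libraries from each. One came from fluorescent cells that had stayed in the mature Organiser (Hensen's node) since it was marked at the close of gastrulation. The other came from the ectoderm and mesoderm lateral to it, named elsewhere in the labels as neural plate and emerging presomitic mesoderm. Tissue came from 3 embryos by manual dissection while alive and from 3 embryos by laser capture microdissection (LCM) of paraffin sections that had been fixed with modified methacarn. The somite number was 8 in the first embryo of either method and 9 in all others. The labels name no strain, sex, transgene or treatment, and the lateral libraries mix more than 1 tissue.

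In an epithelial to mesenchymal transition, cells lose the junctions that hold them in a sheet and move away singly. Snail family zinc finger proteins drive it by repressing genes of cell junctions, cells exchange one cadherin for another, and the ESRP splicing proteins that hold epithelial transcript forms are lost. In the chick embryo cells pass through such a transition at the primitive streak and node to become mesoderm, and Slug, the protein of SNAI2, is a classical marker of it there.

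Total counts ran from 18568123 to 30997461 per library, and 7235 to 11497 genes had at least 1 count, the most in the libraries of manual embryo 1. The node library of LCM embryo 2 held reads that match manual lateral 1. Of the 104 genes with at least 100 counts in manual lateral 1 and none in any library outside its embryo except LCM node 2, 100 were counted there, at a median of 3.45% of their counts (quartiles 2.62% and 4.44%). These reads are called carried reads here, and member values are given with and without them where they matter. The organiser and notochord marker list (6 genes, summed and given as CPM, normalised counts scaled to a common library size) was higher in the node library of 6 of 6 embryos, at 403 to 929 against 53.6 to 259 in manual and at 1130 to 1391 against 181 to 968 in LCM libraries. T, the brachyury gene, gave 87.8% of its counts, and its other genes together were higher in 5 of 6. SHH, a defining marker, had 57, 7 and 38 counts in manual nodes 1 to 3 and 2 counts in manual lateral 1. It was at 0 in 8 of 12 libraries, among them every LCM library, node and lateral.

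Among the adhesion genes, the cadherin CDH2 and its catenin partner CTNND2 had higher values in the node of every embryo, and the claudin CLDN1 had lower ones. SNAI2 had higher values in the node of 6 of 6 embryos, while ESRP2 was higher in the node of the LCM embryos and had no common direction in the manual ones. SNAI1 was counted higher in the node of all 3 LCM embryos. In LCM embryo 2 that direction turned (-3.68 log2 CPM) once the median carried share was subtracted, which left 0 node counts. With the lower quartile of the share subtracted the node stayed higher (2.33 log2 CPM). In the comparison of node with lateral tissue over both methods, edgeR's quasi-likelihood test with Benjamini-Hochberg adjustment called 0 of 9491 genes at an adjusted p below 0.05, so percent called was 0 and none of the 6 genes passed. At an unadjusted p below 0.05 it held 324 genes (3.41%), with CDH2, CLDN1, SNAI2, CTNND2 and ESRP2 among them. DESeq2 called 239 of the 9491 genes at an adjusted p below 0.05. In manual embryos alone edgeR called 0 genes (percent called 0) and had 93 (0.980%) at an unadjusted p below 0.05, among them CDH2, CLDN1 and CTNND2. In LCM embryos alone it called 2 genes (0.0211%), GPR126 and the unnamed ENSGALG00000026616, both named after their values were seen, and had 495 (5.22%) at an unadjusted p below 0.05, with all 6 members among them as counted. With the carried share subtracted SNAI1 had an edgeR p of 0.356 there. DESeq2 called 39 of the 9491 genes in manual and 875 of the 9491 in LCM embryos. A DESeq2 call in LCM embryos was thus far more common over all genes than an edgeR call. The spread was wide, with a biological coefficient of variation of 122%. A difference positive in all 6 embryos was seen in 3.33% of the tested genes and a negative one in 1.02%, which is the background for the 3 members higher in 6 of 6 embryos and the 1 lower in 6 of 6. A gene with 0 counts in both libraries of an embryo could still be given a sign, as CDH17 was in manual embryo 3. These shares thus include some genes with no difference in an embryo. In bulk tissue a lower level of a gene can mean fewer cells of a type or less RNA in each cell, and these cannot be told apart.

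**Figure D1:**
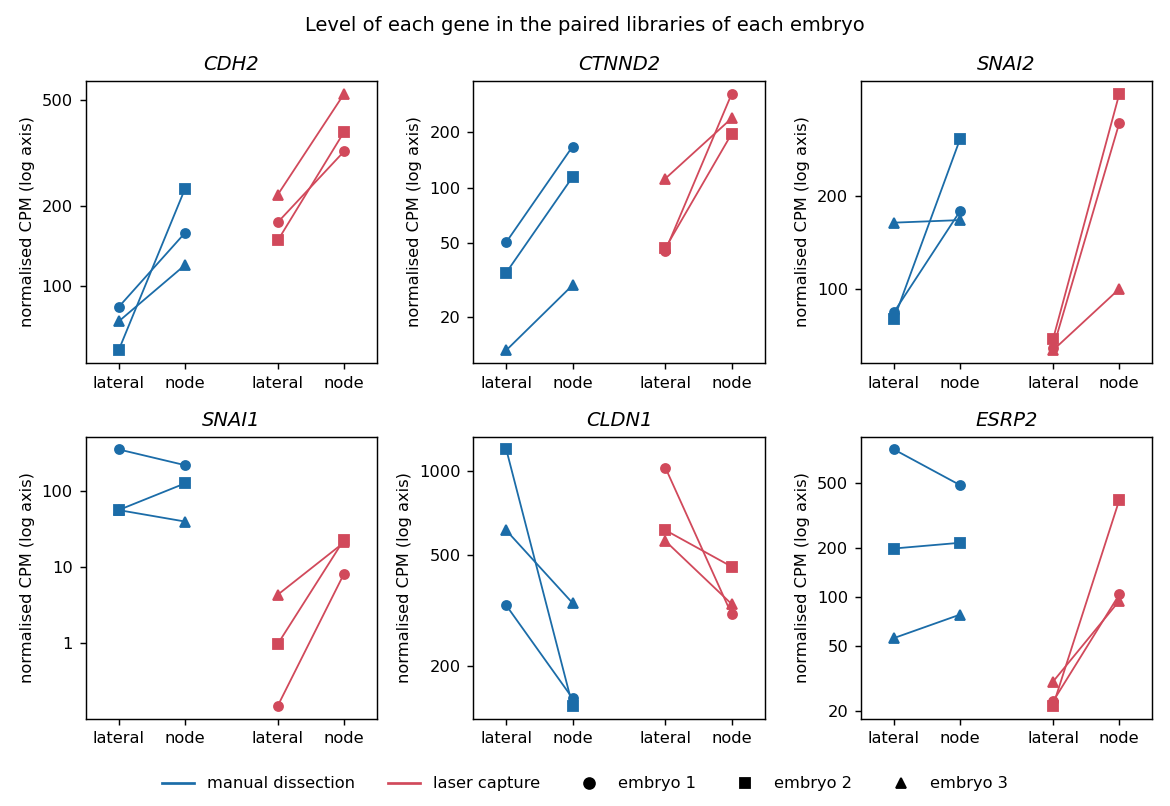
Normalised CPM (log axis) of each gene in the lateral and node libraries, with lines joining the libraries of an embryo, blue for manual dissection and red for laser capture. CDH2, CTNND2 and SNAI2 slope up from lateral to node in 6 of 6 embryos and CLDN1 slopes down in 6 of 6, while SNAI1 lies lower in all LCM libraries (0.151 to 23.2 CPM) than in any manual library (40.1 to 356 CPM).

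SNAI2 encodes Slug, a zinc finger repressor of junction genes. It lies on chromosome 2 at 108123978 to 108127436 on the minus strand, a whole-gene span from the deposited table, as are all positions below, and the sources used here name no genome build. In manual embryos 1 to 3 SNAI2 stood at 180, 308 and 168 CPM in the node and at 84.3, 80.0 and 165 CPM in lateral tissue. In LCM embryos 1 to 3 it stood at 346, 430 and 100.4 CPM in the node and at 64.4, 68.9 and 63.5 CPM in lateral tissue. The node values lay above all lateral values of the same method, as in 3.73% of tested genes for manual and 5.84% for LCM libraries, but manual embryo 3 had nearly equal values (a difference of 0.03 log2 CPM) and LCM embryo 3 a smaller one (0.66) than LCM embryos 1 and 2 (2.43 and 2.64). The log2 fold change was 1.47 ± 0.41 (SE, 6 embryos; edgeR adjusted p = 0.999), 1.02 ± 0.57 in manual and 1.93 ± 0.58 in LCM embryos. DESeq2 called SNAI2 over both methods (adjusted p = 0.0237) and in LCM embryos (0.0256), and limma voom did not over both methods (0.494). No alternative run called it in manual embryos alone. Group means ran from 292 ± 171 CPM (SD, n = 3) in LCM node through 218 ± 77.7 in manual node and 110 ± 47.6 in manual lateral to 65.6 ± 2.91 in LCM lateral tissue, and of the neighbours in this order only the node groups overlapped. Slug is made in mesoderm. The summed level of the presomitic mesoderm list (8 genes) was higher in the node of 1 of 3 manual and 2 of 3 LCM embryos. In manual embryos the node sums were 87.5 to 128 and the lateral sums 90.5 to 117 CPM. In LCM embryos they were 385 to 619 and 52.6 to 706 CPM. DLL1 gave 56.7% of the list's counts, and its other genes together were higher in the node of 1 of 3 manual and 3 of 3 LCM embryos. TBX6, which defines that tissue, was at 0 in 1 library, and TCF15 was at 0 in 10. For the neural crest list (4 genes), LCM embryo 2 alone had the larger sum in its node library (33.4 against 9.58 CPM). SOX9 gave 30% of the counts of that list and had higher node than lateral values in 5 embryos. Without SOX9 the neural crest sum fell below the lateral one in every node library. PAX7 was at 0 in 6 libraries. The part of presomitic mesoderm or neural crest in the SNAI2 values was not tested.

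SNAI1 encodes Snail, the paralogue of Slug, which in the mouse is the family member needed at gastrulation. It lies on chromosome 20 at 14136361 to 14139739 on the minus strand. In manual embryos 1 to 3 SNAI1 had 221, 127 and 40.1 CPM in the node and 356, 56.8 and 56.7 CPM in lateral tissue. The node was thus lower in manual embryos 1 and 3 and higher in embryo 2, and the groups overlapped. In LCM embryos 1 to 3 SNAI1 had 8.27, 23.2 and 21.3 CPM in the node and 0.151, 0.981 and 4.36 CPM in lateral tissue. Behind these LCM values stand 215, 387 and 589 node counts and 3, 26 and 144 lateral counts. As counted, the ranges did not overlap between node and lateral in LCM tissue, as in 5.84% of tested genes. This did not hold with the median carried share subtracted, which left 0 SNAI1 counts in LCM node 2. All 6 LCM libraries lay below all 6 manual libraries, as in 2.02% of tested genes. Group means were 157 ± 173 and 129 ± 90.5 CPM in manual lateral and node tissue, 17.6 ± 8.11 in LCM node and 1.83 ± 2.23 in LCM lateral tissue (SD, n = 3).

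The fitted SNAI1 difference was -0.02 ± 0.82 on the log2 scale in manual embryos and 4.14 ± 0.96 in LCM embryos (edgeR adjusted p = 0.56), and 1.92 ± 0.94 over both (0.999). This rests on few or doubtful reads. In LCM embryo 1 the ratio of 215 to 3 counts is 54.9-fold after scaling, with an exact 95% interval of 18.5 to 268 that covers counting error only. In LCM embryo 2 the carried share of manual lateral 1, where SNAI1 had 11365 counts, comes to 392 reads at its median, against 387 counted in the node library. With that share subtracted the library held 0 SNAI1 counts, the difference in embryo 2 went from 4.45 to -3.68 log2 CPM, and the log2 fold change was 1.89 ± 1.98 in LCM embryos and 0.56 ± 1.14 over both methods. DESeq2 called SNAI1 in LCM embryos (adjusted p = 4.02e-05) and no longer did with the median share subtracted (0.496). The outcome depended on the size of the share. At its lower quartile 298 reads were carried and 89 remained, the difference in embryo 2 was 2.33 log2 CPM, the LCM log2 fold change was 3.28 ± 0.95 (edgeR adjusted p = 0.79), and DESeq2 called SNAI1 (0.00302). At the upper quartile 0 counts remained. LCM embryo 3, with the most SNAI1 counts of the LCM embryos, had a difference of 2.27 log2 CPM.

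Set against each other within a library, the Snail genes gave different proportions by method. The ratio of SNAI2 to SNAI1 reads was 0.813, 2.42 and 4.19 in the manual node libraries and 0.237, 1.41 and 2.90 in the manual lateral ones. It was 41.9, 18.6 and 4.72 in the LCM node libraries and 428, 70.3 and 14.6 in the LCM lateral ones. The node ratio was above the lateral one in 3 of 3 manual embryos. As counted it was below the lateral one in 3 of 3 LCM embryos, but for LCM embryo 2 this did not hold with carried reads subtracted: the node ratio was 80.0 at the lower quartile of the share, and had no value at the median, where no SNAI1 count remained. These are ratios of reads, not of levels per length, since no transcript lengths were used. All LCM ratios lay above all manual ones, and the highest manual value was close to the lowest LCM value.

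CDH2 encodes N-cadherin, the cadherin of neural plate, notochord and somites, and lies on chromosome 2 at 104449184 to 104562821 on the minus strand. In manual embryos 1 to 3 CDH2 stood at 158, 232 and 119.5 CPM in the node and at 83.0, 57.0 and 73.2 CPM in lateral tissue. In LCM embryos 1 to 3 it stood at 321, 380.3 and 529 CPM in the node and at 173, 148 and 220.3 CPM in lateral tissue. Every node value lay above all lateral values of its method, as in 3.73% of tested genes for manual and 5.84% for LCM libraries. Group means stood in the order LCM node (410.2 ± 107 CPM, SD, n = 3), LCM lateral (181 ± 36.7), manual node (170 ± 57.0) and manual lateral (71.1 ± 13.1), where LCM lateral and manual node overlapped. The differences were alike in size, from 0.71 to 1.36 log2 CPM in 5 embryos and 2.02 in manual embryo 2, with a mean of 1.195 ± 0.47 (SD, n = 6). The fitted log2 fold change was 1.19 ± 0.29 (SE; edgeR adjusted p = 0.873), with 1.22 ± 0.45 in manual and 1.17 ± 0.44 in LCM embryos, and the difference between methods was -0.04 ± 0.62. It ranked 14th of 9491 genes by p. The neural plate also makes N-cadherin. Its list (5 genes) summed to 254 to 3164 CPM in manual and 879 to 2336 CPM in LCM lateral tissue, against 274 to 1699 and 323 to 999 CPM in the node, which was higher in 1 of 6 embryos. FABP7 gave 98.1% of these counts, and the other 4 genes together were higher in the node of 3 of 6 embryos. The part of neural plate in the CDH2 values was not tested. DESeq2 called CDH2 over both methods (adjusted p = 0.00519) and not in manual embryos (0.239) or LCM embryos (0.131) alone.

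CTNND2 encodes delta-catenin, a p120 family protein that binds the inner end of cadherins and is best known from neurons, and lies on chromosome 2 at 77784558 to 78033401 on the plus strand. Its manual node values were 168, 114 and 29.6 CPM against lateral values of 50.7, 34.6 and 13.1 CPM in embryos 1 to 3. Its LCM node values were 324, 197 and 239 CPM against lateral values of 45.5, 47.1 and 112 CPM. Each embryo had more in its node, by 1.09 to 2.83 log2 CPM, although in manual tissue the groups overlapped because manual embryo 3 was low in both libraries. Group means were 253 ± 64.7 CPM (SD, n = 3) in LCM node, 104 ± 69.6 in manual node, 68.3 ± 38.0 in LCM lateral and 32.8 ± 18.8 in manual lateral tissue, and each of the last 3 overlapped its neighbour in this order. The log2 fold change of 1.76 ± 0.40 (SE; edgeR adjusted p = 0.623) ranked 11th by p and was 1.54 ± 0.59 in manual and 1.99 ± 0.61 in LCM embryos. DESeq2 called CTNND2 over both methods (adjusted p = 1.65e-04) and in LCM embryos (0.00819). No alternative run called it in manual embryos alone.

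CLDN1 encodes claudin-1, a tight junction protein of epithelia, and lies on chromosome 9 at 13417660 to 13427011 on the plus strand. In manual embryos 1 to 3 CLDN1 had 154, 145 and 337 CPM in the node and 330.3, 1190 and 612 CPM in lateral tissue. In LCM embryos 1 to 3 it had 307, 454 and 334 CPM in the node and 1024, 613 and 561 CPM in lateral tissue. The LCM groups did not overlap, as in 2.61% of tested genes, and the manual ones overlapped through the lateral value of embryo 1 and the node value of embryo 3. Group means of 733 ± 254 CPM in LCM lateral, 711 ± 439 in manual lateral, 365 ± 78.4 in LCM node and 212 ± 108 in manual node tissue (SD, n = 3) overlapped with each neighbour. The node was lower in 6 of 6 embryos, with a mean difference of -1.32 ± 0.95 log2 CPM (SD, n = 6), least in LCM embryo 2 (-0.43) and most in manual embryo 2 (-3.04). The fitted log2 fold change was -1.29 ± 0.32 (SE; edgeR adjusted p = 0.873), with -1.64 ± 0.46 in manual and -0.97 ± 0.44 in LCM embryos. Without manual embryo 2 the manual value was -1.01, and without LCM embryo 1 the LCM value was -0.57. CLDN1 passed over both methods with DESeq2 (adjusted p = 0.00313) and with edgeR when no filter on low counts was used (0.0184). No alternative run called it in manual embryos alone or in LCM embryos alone.

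Markers of surface ectoderm, where claudin-1 is made, had lower values in the node together with CLDN1. The summed level of the list (8 genes) was lower in the node of 5 of 6 embryos, at 43.7 to 85.9 against 95.6 to 117.5 CPM in manual and 49.7 to 104 against 74.9 to 145 CPM in LCM libraries. KRT19 and MSX1 of the list were counted in every library, while the defining genes GATA3 and DLX6 were at 0 in 11 of 12 libraries and TP63 in 7. The exception was LCM embryo 3, with 104 CPM in the node and 74.9 CPM in lateral tissue, where the CLDN1 difference was -0.75 log2 CPM. KRT19 gave 73.5% of the list's counts. The other 7 genes together were higher in the node of 1 of 6 embryos, manual embryo 3 (5.14 against 2.095 CPM). In LCM embryo 3 they were lower in the node (21.6 against 38.3 CPM). The part of this tissue in the CLDN1 values was not tested.

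**Figure D2:**
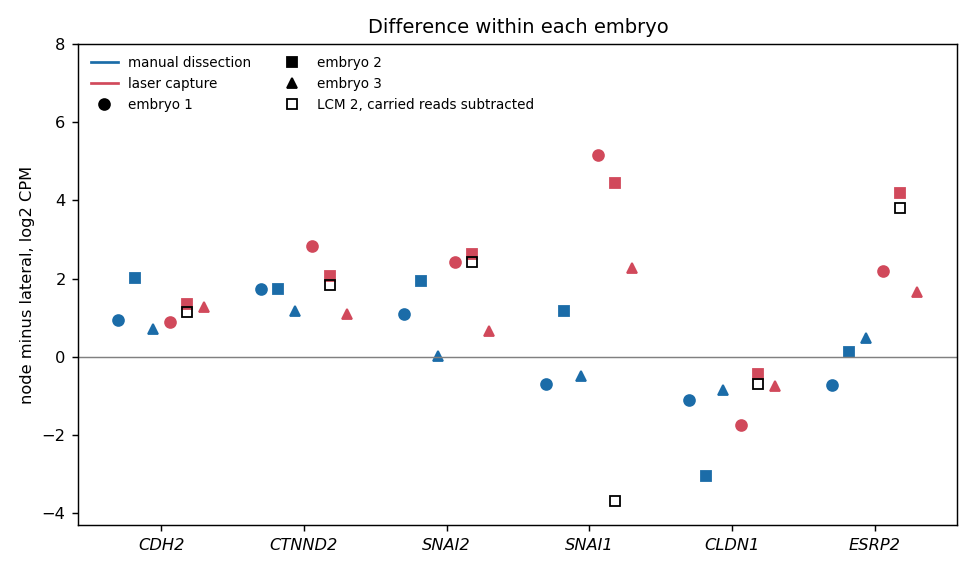
Node minus lateral difference of each gene in each embryo, in log2 CPM, with open squares for LCM embryo 2 once the carried reads are subtracted. CDH2, CTNND2 and SNAI2 lie at or above 0.03 and CLDN1 at or below -0.43, and only the SNAI1 point of LCM embryo 2 changes side, from 4.45 to -3.68 at the median carried share (2.33 at its lower quartile).

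ESRP2 encodes an epithelial splicing regulator that promotes epithelial transcript forms, such as those of FGFR2, and lies on chromosome 11 at 2732927 to 2776480 on the plus strand. In manual embryos 1 to 3 ESRP2 stood at 487, 215 and 77.9 CPM in the node and at 808, 199 and 55.8 CPM in lateral tissue. These values differed more between embryos than between tissues, with node minus lateral differences of -0.73, 0.12 and 0.48 log2 CPM. In LCM embryos 1 to 3 ESRP2 stood at 104, 395 and 94.7 CPM in the node and at 22.7, 21.4 and 30.1 CPM in lateral tissue. All LCM node values lay above all LCM lateral values, as in 5.84% of tested genes, with differences of 2.18, 4.2 and 1.65 log2 CPM. Group means were 354 ± 399.5 and 260.0 ± 208 CPM in manual lateral and node, 198 ± 171 in LCM node and 24.8 ± 4.69 in LCM lateral tissue (SD, n = 3), and only the last stood clear of its neighbour. The fitted log2 fold change was -0.04 ± 0.53 in manual embryos, 2.65 ± 0.58 in LCM embryos (edgeR adjusted p = 0.394) and 1.25 ± 0.57 (SE) over both (0.999). DESeq2 called it in LCM embryos (adjusted p = 1.22e-04), as did edgeR without the filter on low counts (0.0198). Carried reads match 890 of its 6603 counts in LCM node 2 (13.5%), and with them subtracted the difference in that embryo was 3.80 and the LCM value 2.53 ± 0.53. Without LCM embryo 2 the LCM value was 1.93 and that over both methods 0.73.

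Of the endoderm markers TF, which encodes transferrin, was above its lateral value in 6 of 6 nodes. The summed endoderm list (7 genes) stood at 61.6, 289 and 335 CPM in the LCM node and at 6.48, 134 and 37.2 CPM in LCM lateral tissue, with the node above lateral tissue in 6 of 6 embryos, the manual ones included (195 to 1706 against 55.6 to 844 CPM). TF gave 84.6% of the list's counts, and the other 6 genes together were higher in the node of 4 of 6 embryos. They stood at 143 CPM in the node and 330 CPM in lateral tissue of manual embryo 1. In LCM node libraries 1 to 3 they stood at 0.154, 23.7 and 0.397 CPM, and at 2.21 CPM in LCM node 2 with the carried share subtracted. HHEX was at 0 in 11 libraries, and TTR, APOB and FGB were at 0 in LCM node 1. The part of endoderm in the ESRP2 values was not tested.

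**Figure D3:**
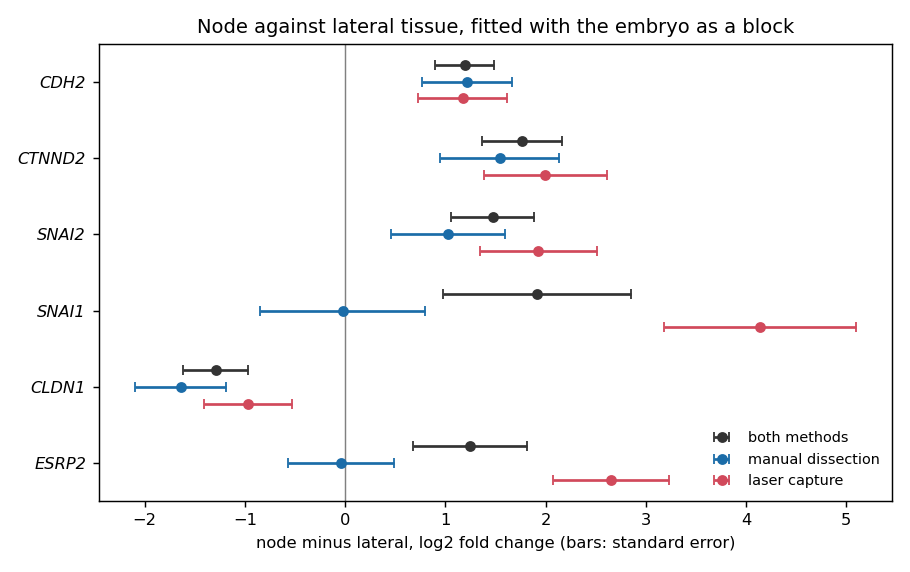
Log2 fold change of node against lateral tissue for each gene (points) with its standard error (bars), over both methods, in manual embryos and in LCM embryos. CDH2 lies at 1.22 and 1.17 in the manual and LCM embryos, while SNAI1 (-0.02 and 4.14) and ESRP2 (-0.04 and 2.65) lie apart by method.

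Whether the node difference itself depended on the method was tested in 1 model. No gene of the 9491 passed edgeR's test of the difference (percent called 0), 246 (2.59%) had an unadjusted p below 0.05, and DESeq2 called 254. SNAI1 and ESRP2 had the largest differences among the members, LCM minus manual, of 4.16 ± 1.25 and 2.69 ± 0.78 on the log2 scale, each with an edgeR adjusted p of 1. DESeq2 called both (adjusted p = 0.0172 for SNAI1 and 0.0297 for ESRP2). With the median carried share subtracted it called ESRP2 (2.46, adjusted p = 0.0221) and not SNAI1 (1.87, 0.774). The other 4 members differed by -0.04 to 0.90, with standard errors of 0.62 to 0.83. Over all genes tested the LCM log2 fold changes had a median of 0.36, and 0.19 with DESeq2 size factors, so member values above 0 there stand against a scale shifted by that much. In manual embryos the median was -0.01.

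The level over both tissues was compared between methods on counts summed per embryo, 3 sums per method, where method and embryos differ together. Of 9113 genes tested, edgeR called 0 (percent called 0), 1210 (13.3%) had an unadjusted p below 0.05 and DESeq2 called 720. Without manual embryo 1 edgeR called 134 genes, with no member among them. SNAI1 was lower in LCM embryos by -4.06 ± 0.81 on the log2 scale (edgeR adjusted p = 0.184; 0.0541 without the filter on low counts; DESeq2 9.12e-06), and by -3.00 without manual embryo 1, its highest. CDH2 was higher in LCM embryos by 1.24 ± 0.36 (edgeR adjusted p = 0.235; DESeq2 0.0397), with all LCM node values above all manual node values and all LCM lateral values above all manual lateral ones, as in 8.75% and 7.20% of tested genes. ESRP2 differed by -1.67 ± 0.79 and by -0.54 without manual embryo 1, which held its 2 highest values. CTNND2, CLDN1 and SNAI2 differed by 1.22 ± 0.61, 0.19 ± 0.39 and 0.06 ± 0.46.

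The partners of these genes were looked up in the same libraries. CDH1, which encodes the E-cadherin that epithelia give up in the exchange, had 61, 2, 33 and 1 counts in manual node 1, manual lateral 1, LCM node 1 and LCM lateral 3 and was at 0 in the other 8 libraries, where counting error alone allows up to 3 counts per library. OCLN (occludin) had 3 counts and CLDN3 (claudin-3) 1 count in all libraries together. An exchange of CDH1 for CDH2 could thus not be measured in these libraries. Of 10 claudins with a row besides CLDN1, only CLDN12 passed the filter on low counts. CLDN12 differed by 0.13 ± 1.31, lower in the node of 4 of 6 embryos, and had 1 node and 4 lateral counts in LCM embryo 1. CTNND1 (p120 catenin) had 615 counts in all and was at 0 in 4 libraries, and ESRP1, the paralogue of ESRP2, had 470 and was at 0 in 5. EPCAM, an epithelial adhesion molecule, was counted in all libraries (255 to 4847 counts) with a log2 fold change of 0.36 ± 0.51, positive in 4 of 6 embryos, or in 3 of 6 with the carried share subtracted. TJP1, a scaffold of tight junctions, differed by -1.14 ± 0.61, lower in the node of 4 of 6 embryos. On the mesenchymal side the repressors ZEB1 and ZEB2 differed by 1.22 ± 1.22 and 3.05 ± 1.88, each higher in the node of 4 of 6 embryos. VIM, the intermediate filament vimentin, differed by 1.31 ± 1.24, higher in 6 of 6 as counted. In LCM embryo 2 it had 30 node and 22 lateral counts, and with the carried share subtracted 13 node counts were left and 5 of 6 embryos were higher. FN1, fibronectin of the matrix, differed by -1.36 ± 1.35. None of the genes tested here passed edgeR's test (adjusted p of 0.999 or above). CDH1, OCLN and CLDN3 did not pass the filter on low counts and were not tested. TWIST1 was not analysed here.

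Beside them 8 lists of related genes were read: epithelial genes, mesenchymal genes, cadherins, catenins, claudins, partners and upstream signals of Snail, splicing factors, and transcripts spliced by ESRP. Of 119 genes with a row, the 6 members left out, 91 were tested, and 0 passed edgeR over all genes. At an unadjusted p below 0.05 there were 8 higher and 2 lower in the node (8.79% and 2.198%), where all genes gave 2.68% and 0.738%. The lists, like the members, were chosen with earlier results of these data known, so these shares are a description only. CDH4, CDH17 and KRT18, of low mean level, were among the 8. Their median log2 fold change was 0.26, against 0.17 over all genes tested.

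The 25 tested epithelial genes had a median of 0.12, with 13 positive, and the 16 tested mesenchymal genes 0.21, with 10 positive. MMP2, a matrix protease, differed by 5.55 ± 1.95. Its counts in manual embryos 1 to 3 were 851, 2719 and 278 in the node and 18, 40 and 0 beside it. In LCM embryos 1 to 3 they were 0, 308 and 1648 in the node and 1, 1 and 570 beside it. MMP2 was called by DESeq2 (adjusted p = 5.33e-04) and not by edgeR (0.999). PKP2, a desmosome plaque protein, differed by 1.79 ± 1.02, ITGB1, the beta-1 integrin, by 0.56 ± 0.39, and SPINT1, a protease inhibitor of epithelia, by 0.28 ± 0.25, each higher in the node of 5 of 6 embryos.

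Of the 7 tested catenins CTNNB1, beta-catenin, was higher by 0.57 ± 0.23 in 5 of 6 embryos, and CTNNA1, alpha-catenin, differed by -0.78 ± 1.24. Of the 20 tested Snail partners and signals 12 were positive. KDM1A, a histone demethylase that Snail recruits, was higher by 0.70 ± 0.25 and HDAC1, a histone deacetylase of the same complexes, by 0.38 ± 0.17, each in 6 of 6 embryos, at an edgeR adjusted p of 0.999. WNT5A, a non-canonical Wnt ligand, differed by 0.73 ± 0.41 and GSK3B, of the same list, by 1.28 ± 1.195, each higher in 5 of 6 embryos. Of the 10 tested splicing factors PTBP1 was higher by 0.47 ± 0.19 in 5 of 6 embryos, and MBNL1 and RBFOX2, which promote mesenchymal or mature transcript forms, differed by -4.97 ± 2.27 and -1.41 ± 0.86, lower in 5 of 6 each. DESeq2 called MBNL1 (adjusted p = 0.00825) and edgeR did not (0.999). QKI, of the same list, went the other way, by 2.30 ± 1.44 and higher in the node of 5 of 6 embryos. The QKI value was 0.26 ± 1.32 in manual and 6.68 ± 2.04 in LCM embryos. The LCM value rests on lateral counts of 3, 2 and 174, against 995, 635 and 494 in the node. Over both methods neither DESeq2 (adjusted p = 0.270) nor edgeR (0.999) called QKI. The 8 tested transcripts spliced by ESRP had a median of 0.14, and gene counts do not show their splice forms.

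The remaining genes at an unadjusted p below 0.05 had a low mean level and were singled out after their values were seen. They were the cadherins CDH4 (7.89 ± 3.16) and CDH17 (7.83 ± 3.71), with 0 counts in 5 of 6 and 5 of 6 lateral libraries, KRT18 (4.90 ± 3.03) and S100A4 (-7.50 ± 3.15). S100A4, a calcium binding protein used as a mesenchymal marker, had more lateral counts in 5 of 6 embryos.

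**Figure D4:**
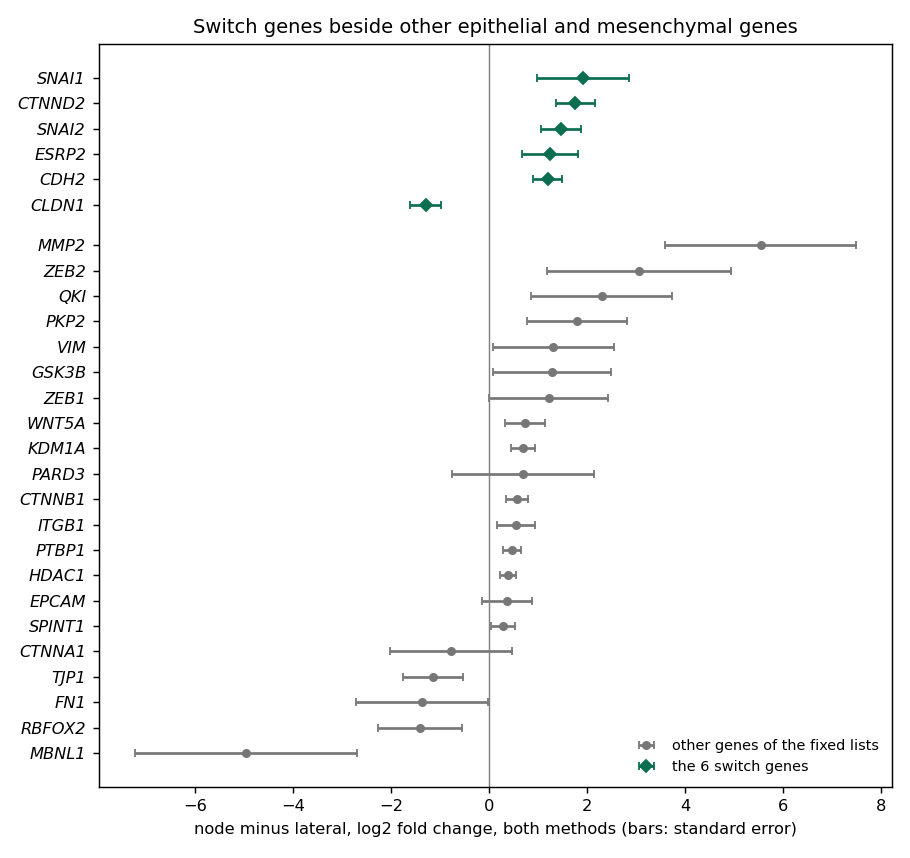
Log2 fold change of node against lateral tissue over both methods, with its standard error, for the 6 switch genes (diamonds) and for other named genes of the lists with a mean of at least 3 log2 CPM (circles). CLDN1 at -1.29 is the only switch gene below 0, and the standard errors of CDH2 (0.29) and CLDN1 (0.32) are among the smaller ones.

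Genes with the most similar course over the 12 libraries were found by Pearson's correlation of log2 CPM among 6065 genes with a mean of at least 3 log2 CPM, as a description only, since libraries share embryos and methods. For CDH2 these were 2 unnamed genes, ENSGALG00000006036 (r = 0.93) and ENSGALG00000013233 (0.86), and TCF12 (0.86), which encodes an E protein. For CTNND2 they were SMC5, NOTCH2 and UBFD1 (0.88, 0.87 and 0.86), and for SNAI2 PDP1, PAXIP1 and GTF2B (0.86, 0.84 and 0.83). For CLDN1 they were RPS29, LAP3 and SNRPG, at lower values of 0.79, 0.79 and 0.76. For ESRP2 they were EPAS1, ATP4B and MCOLN2 (0.92, 0.92 and 0.91), and for SNAI1 ENSGALG00000026616, CAT and TMEM120A (0.95, 0.94 and 0.94). The SNAI1 values were taken over libraries of both methods, and so include its gap between methods. All correlations used the counts as deposited, carried reads in LCM node 2 included, and were not repeated without them.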

How the data were processed

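RNA was sequenced in 12 libraries, a pair from each of 6 chick embryos. Per the labels, miRNeasy columns gave nanogram amounts of total RNA, and the SMARTer low RNA kit amplified it, so a transcript can be missed in a single library, and reads without molecular identifiers are not independent molecules. The submitters' processing notes list Bowtie2 2.2.3 with no role. Counter, annotation, build and strand use were not given in the sources used here, and overlapping or antisense genes cannot be told apart.

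The deposited tables hold raw read counts for Ensembl genes and, as a signal, the authors' values normalised by library, which equal the counts over a single median-of-ratios factor. The counts were the basis of the tests. Symbols came from the deposited table, and 1 RefSeq gene table was used to find list genes under other names. No column was left unmapped (0). CPM were scaled with TMM factors, and log2 CPM used a prior count of 2.

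Tests used R 4.3.3 with edgeR 4.0.16 (quasi-likelihood, TMM, filterByExpr by group, minimum count 10, minimum total 15, adjusted p below 0.05), with the embryo as a block and population as the term, once over both methods and once per method. Standard errors of edgeR values were derived as the unshrunken coefficient over the root of the F statistic. They stand beside log2 fold changes that edgeR shrinks. For genes of low count the printed value over its standard error thus need not match the p-value. The pair is 1 animal per the labels. Deviations from group means correlated at 0.473, 0.116 and 0.215 in manual and 0.0704, 0.0295 and 0.0667 in LCM pairs. The carried share is the median over 104 genes. DESeq2 1.42.0 and limma 3.58.1 gave alternatives. Scripts were tested on simulated data with a much smaller spread than the 122% found here and without genes of low mean count. That checks the code and not how well differences are found at the spread of these data.

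The members, lists and tests were chosen with earlier results of these data known. Named were the members, a fixed set of partners, up to 4 genes per list with the smallest p (mean of at least 3 log2 CPM, 1 sign in 5 of 6 embryos), and 3 similar genes per member.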

Additional observations from a re-analysis of the deposited data

How the results depend on the processing

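Each comparison was repeated under alternatives, of which DESeq2 with the carried share subtracted, and both tools with its lower quartile subtracted, were chosen after seeing the data. Counts of genes called over both methods (0), in manual embryos (0), in LCM embryos (2), for the difference (0) and between methods (0) were 36, 7, 33, 5 and 19 with no filter, 239, 39, 875, 254 and 720 with DESeq2, and 219, 32, 849, 283 and 756 with DESeq2 and the carried share subtracted. With its lower quartile DESeq2 called 226 over both methods and 893 in LCM embryos. The LCM count was 0 with limma voom and 0 with the carried share subtracted in edgeR, and the count between methods was 2 with the share subtracted and 1 with DESeq2 size factors. Leaving out 1 embryo in turn gave 0 to 4, 0 to 1, 1 to 9, 0 throughout and 0 to 134 calls, the last without manual embryo 1. The pair is 1 animal; with no replicate block the calls were 0, 0, 1 and 0 in the paired comparisons, no member was called, and PARD3 and FN1 turned to -0.18 and 0.25. CDH2, CLDN1, SNAI2 and CTNND2 kept their direction over both methods under every alternative run, and ESRP2 ranged from 0.16 (limma voom) to 1.58.

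Other values turned sign or moved without turning, and the cause was not tested. SNAI1 over both methods was -0.042 with limma voom, 1.25 without LCM embryo 1 and 1.28 without LCM embryo 2. CTNND1 (-0.03, with 0 counts in 4 libraries) was 0.038 with no filter, 0.19 with DESeq2 and -1.75 to 1.38 with 1 embryo left out. ESRP1 ranged from -1.64 to 0.51 and EPCAM from -0.078 to 0.51 with 1 embryo left out. In manual embryos, with 1 embryo left out, SNAI1 ranged from -0.62 to 0.36 and ESRP2 from -0.30 to 0.32; ESRP2 was -0.49 with limma voom. SNAI2 was 0.53 and CDH2 0.79 without manual embryo 2. The difference between methods of CDH2 was 0.069 with no filter and -0.53 to 0.16 with 1 embryo left out, and that of CLDN1 was -0.19 to 1.07 with 1 left out. The level of SNAI2 between methods was -0.10 with limma voom, -0.0077 with the carried share subtracted and -0.14 to 0.46 with 1 embryo left out, and that of CLDN1 was -0.12 to 0.51 with 1 left out. With 3 embryos per method and this spread, small differences were not detectable.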

Other observations

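A smaller share in the reverse direction was also seen. Of genes with at least 500 counts in LCM node 2 and at most 5 in all libraries outside its embryo except manual lateral 1, 8 were found, and their counts in manual lateral 1 were at a median of 1.19% of those in LCM node 2. That share would come to at most 3.18% of any member's counts in manual lateral 1 (SNAI2), and to 0.0405% for SNAI1.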
